A study of Mus musculus with 2 samples.

Results

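The genes described here are the GIMAP family (GTPases of immunity-associated proteins), measured in donor T cells after allogeneic hematopoietic cell transplantation (allo-HCT). The 8 members, Gimap1, Gimap3, Gimap4, Gimap5, Gimap6, Gimap7, Gimap8 and Gimap9, were taken by gene symbol from the 32285 genes listed for both libraries, and all 8 were detected on both days. Splenic T cells from wild-type C57BL/6 donors were given with T cell-depleted bone marrow to lethally irradiated BALB/c mice. This is a fully MHC-mismatched model of acute graft-versus-host disease (aGvHD). Donor T cells were sorted from recipient spleens by surface CD45, donor H2kb, absence of recipient H2kd, and TCRβ, at day +7 and at day +14. Cells were pooled and examined by droplet single-cell RNA-seq on the 10x Genomics system, in 1 library per day. The names of both libraries carry the letters PBS, which the labels do not explain, and no transgene, deletion or drug is stated for either. Donor T cells before transfer and T cells of healthy mice were not analysed here.

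According to the labels, both sorts took place on day +7, while the titles name day +7 for one library and day +14 for the other, and the titles were followed here. The sources also differ on the number of donor T cells injected, and only some of them call these cells naive. With 1 library per day, the day and the library cannot be told apart and no test between days is possible. Intervals in brackets are 95% intervals for counting error alone, exact Poisson for levels, exact conditional binomial for ratios and exact binomial (Clopper-Pearson) for shares of cells, and do not cover differences between mice or pools.

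GIMAP proteins bind guanine nucleotides through a shared G domain related to that of septins and dynamins, and several of them sit on the membranes of organelles. They are made mostly in lymphocytes, where they are known for keeping resting T cells alive. The best known case is Gimap5, whose loss causes T lymphopenia in rats and mice.

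The genes lie side by side in 123618 bases of chromosome 6, at chr6:48647234-48770851 of the mm10 build in the GENCODE annotation. Along the chromosome their order was Gimap8, Gimap9, Gimap4, Gimap6, Gimap7, Gimap1, Gimap5 and Gimap3. Gimap6 and Gimap3 are transcribed from the minus strand and the other 6 from the plus strand. The antisense transcript Gimap1os overlaps 1107 exonic bases of Gimap1 on the opposite strand. The sources used here do not state whether the counting used strand, and without strand the reads of this overlap cannot be assigned to either gene. Gimap3 and Gimap5, which are close paralogs, shared 190 stretches of 50 bases. These were 7.52% of those in Gimap3 transcripts and 4.53% of those in Gimap5 transcripts. Reads from within them could not be told apart, and the share of reads that came from them was not tested. No such stretch was shared by any other pair of members.

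The promoters of Gimap4, Gimap7 and Gimap9 are shown because these genes had unlike patterns across the T cell gates described below. Each sequence is the 250 bases before a RefSeq start site (build GRCm38.p6, which is mm10), written 5′ to 3′ in the direction of transcription. Capitals mark the letters TGTGGT, a core bound by RUNX factors of T cells, AGGAAG, a core bound by ETS factors, and CACCC, bound by KLF factors, on either strand.
Gimap4 (chr6:48684328-48684577, plus strand): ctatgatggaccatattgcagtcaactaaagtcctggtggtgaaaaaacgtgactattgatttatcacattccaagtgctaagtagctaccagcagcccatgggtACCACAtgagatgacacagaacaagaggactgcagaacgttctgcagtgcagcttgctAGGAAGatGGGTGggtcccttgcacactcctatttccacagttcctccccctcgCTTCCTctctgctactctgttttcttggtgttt
Gimap7 (chr6:48718371-48718620, plus strand): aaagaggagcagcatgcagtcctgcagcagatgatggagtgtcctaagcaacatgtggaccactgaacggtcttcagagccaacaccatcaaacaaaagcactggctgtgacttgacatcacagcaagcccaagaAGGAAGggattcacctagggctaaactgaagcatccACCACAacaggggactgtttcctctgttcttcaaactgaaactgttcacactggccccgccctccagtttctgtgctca
Gimap9 (chr6:48675885-48676134, plus strand): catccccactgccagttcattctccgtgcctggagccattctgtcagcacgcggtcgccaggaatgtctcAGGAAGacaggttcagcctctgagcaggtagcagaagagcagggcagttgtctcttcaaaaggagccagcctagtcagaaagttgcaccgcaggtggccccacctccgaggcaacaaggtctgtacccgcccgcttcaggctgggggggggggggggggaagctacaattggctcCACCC
The windows of Gimap4 and Gimap9 end inside the first exon of GENCODE models that start further upstream. The RUNX letters were found before the start sites of Gimap4, Gimap7 and Gimap1, that is in 3 of the 8 genes, and in 14.1% of all 32851 windows of that length. They began 145 bases before the start in Gimap4 and 79 bases before it in Gimap7. The ETS letters were found in 7 of the 8 genes, all but Gimap6, against 29.5% of all windows. The KLF letters were in 5 of the 8 genes, against 52.0%. Gimap8 had an additional window, and by window the RUNX, ETS and KLF letters were in 3, 7 and 6 of 9. A further motif, TGGGAA, a core bound by the Notch partner RBPJ, was before the start of none of the 8 genes and in 21.6% of all windows. None of these motifs overlapped another in the sequences shown. Gimap4 and Gimap7 thus both held the RUNX letters and Gimap9 did not, and Gimap9 had 8 CG pairs in its window against 3 in Gimap4 and 2 in Gimap7.

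Of the 7355 barcodes at day +7 and 8043 at day +14, those with 500 to 7500 detected genes and at most 15% mitochondrial UMIs (unique molecular identifiers, each marking 1 captured RNA molecule) were kept, 7179 and 7794 cells. The T cell gate, at least 3 UMIs over 6 T cell receptor complex genes and at most 0.5% of UMIs on myeloid and erythroid markers, took 6978 and 7616 cells with median depths of 9196.5 and 8210.5 UMIs. Of these, 5617 and 5760 fell in the CD8 gate (at least 2 UMIs of Cd8a and Cd8b1, no Cd4 or Foxp3), 505 and 815 in the CD4 gate, 50 and 47 in the Foxp3+ gate, and 806 and 994 in none of them. A cell was called cycling when at least 0.3% of its UMIs were on 24 cell cycle genes and non-cycling when fewer than 0.1% were. The gates are ranges and not cell types, and among CD8 cells 336 at day +7 and 310 at day +14 lay within 0.02 percentage points of the lower limit, and 671 and 612 within 0.05 of the upper one. The libraries shared 20 barcodes, 17 of them kept on both days.

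GIMAP transcripts were present in nearly every donor T cell. The 8 members together made up 1987 UMIs per 1000000 (CPM) [1978, 1997] in T cells at day +7 and 2249.9 CPM [2239.7, 2260.2] at day +14. These sums rest on 164986 and 185555 UMIs, which is 23.6 and 24.4 for each cell. When each cell was thinned to 4000 UMIs, so that depth did not differ, 21 of 6840 cells at day +7 (0.307%) [0.190, 0.469] and 12 of 6737 at day +14 (0.178%) [0.0921, 0.311] had no GIMAP UMI. The thinning left out 138 and 879 shallower T cells. Before thinning, 99.99% and 99.91% of T cells had at least 1 GIMAP UMI.

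Cells of other lineages in the same libraries showed the background. In 36 and 52 neutrophil-marked cells, with median depths of 11920.5 and 5713 UMIs, the family had a level of 22.8 CPM [11.8, 39.9] on day +7 and 65.9 CPM [42.7, 97.3] on day +14. Thinned to the same 4000 UMIs, 11.8% [3.30, 27.5] of 34 neutrophil-marked cells at day +7 and 23.5% [10.7, 41.2] of 34 at day +14 had any GIMAP UMI. In 31 and 19 erythroid-marked cells, with median depths of 27987 and 2242 UMIs, the family was at 21.8 CPM [12.2, 36.0] and 125 CPM [59.8, 229]. The T cell level was far above the level in both kinds of cell on both days. These cells were defined in part by having fewer than 3 T cell receptor complex UMIs.

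At equal depth a typical T cell carried several members at once. The median T cell had 8 GIMAP UMIs on 5 different members at day +7 and 9 UMIs on 5 members at day +14, out of 4000. The middle 80% of T cells ranged from 4 to 14 UMIs at day +7 and from 5 to 16 at day +14. The variance over the mean of this count was 1.91 and 2.01, where counting alone would give a value near 1. Within the CD8 gates it was lower, 1.48 in cycling and 1.55 in non-cycling cells at day +7, and 1.64 and 1.70 at day +14. In CD4 cells it was 2.14 in cycling and 1.86 in non-cycling ones at day +7, and 1.82 and 2.01 at day +14. In the Foxp3+ gate, with 47 and 35 cells after thinning, it was 2.66 at day +7 and 2.34 at day +14.

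The members took very unequal parts of the family sum. These are parts of the captured molecules. Whether capture differed between the genes was not tested, so the parts need not rank the genes by number of transcripts. Gimap4, which speeds the death of T cells after apoptotic stimuli, held 23.8% of the family's UMIs in T cells at day +7 and 24.3% at day +14. Gimap1, needed for the survival of mature T and B cells, held 19.9% and 17.0%. Gimap7, a GTPase activated by pairing of its G domains, held 13.9% and 15.9%. Gimap8, whose chain holds several G domains, held the smallest part, 2.90% and 2.75%. These parts do not depend on the scaling of the libraries. At day +14 Gimap1, Gimap9 and Gimap3 held less of the family than at day +7 and Gimap7, Gimap6 and Gimap5 held more. On the log2 odds scale, with approximate counting intervals, the part held by Gimap1 differed by -0.28 [-0.31, -0.26], that of Gimap9 by -0.20 [-0.24, -0.15] and that of Gimap3 by -0.16 [-0.19, -0.13]. The parts of Gimap7, Gimap6 and Gimap5 differed by 0.23 [0.20, 0.26], 0.20 [0.17, 0.23] and 0.12 [0.091, 0.16].

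The levels of the members were next examined across 10 groups of cells, 5 gates on each of the 2 days. The summed family was lowest in cycling CD8 cells at day +7, at 1699 CPM [1686, 1711], and highest in Foxp3+ cells at day +14, at 3488 CPM [3281, 3704], a range of 2.05-fold. All 4 cycling groups lay below all 4 non-cycling groups. Cycling CD4 cells at day +7 had 1713 CPM [1664, 1763], cycling CD8 cells at day +14 had 1958 CPM [1945, 1971] and cycling CD4 cells at day +14 had 2025 CPM [1974, 2076]. Foxp3+ cells at day +7 stood between the cycling and the non-cycling groups with 2429 CPM [2298, 2566]. The Foxp3+ gate was not divided by cycling. It held 14 cycling and 24 non-cycling cells at day +7, and 12 and 25 at day +14, with the rest intermediate. The part of this mixture in the Foxp3+ levels was not tested. Non-cycling CD8 cells and non-cycling CD4 cells at day +7 had 2639 CPM [2612, 2666] and 2643 CPM [2569, 2719], and at day +14 they had 2986 CPM [2952, 3020.3] and 3405 CPM [3331, 3481]. Neighbors in this order whose intervals overlapped were cycling CD8 and cycling CD4 cells at day +7, non-cycling CD8 and non-cycling CD4 cells at day +7, and non-cycling CD4 and Foxp3+ cells at day +14. The other neighbors had intervals that did not overlap.

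**Figure D1:**
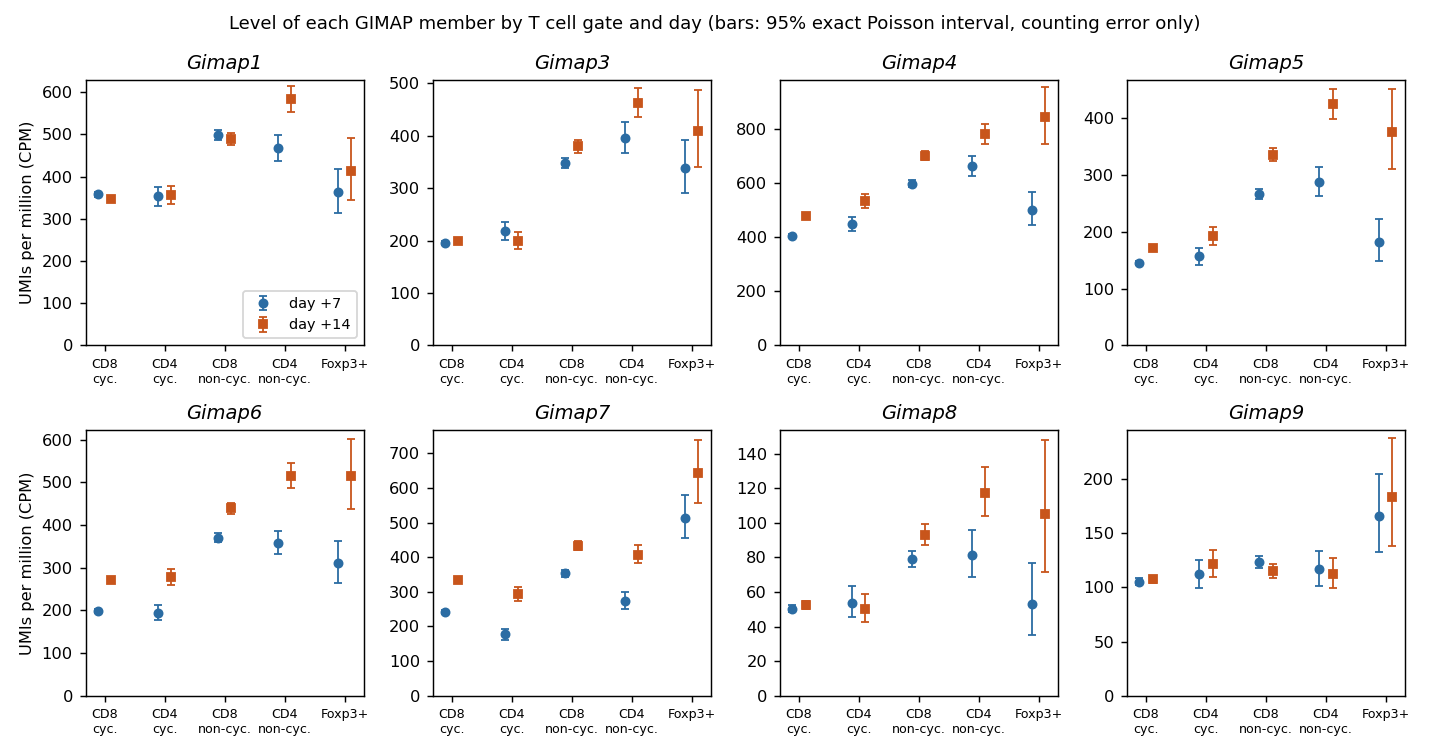
Level of each of the 8 GIMAP genes (CPM, linear axis from 0) in 5 T cell gates at day +7 (circles) and day +14 (squares), with exact Poisson intervals for counting error. Most members are lower in the cycling gates (cyc.) than in the non-cycling gates (non-cyc.), Gimap9 is nearly level apart from Foxp3+ cells, and Gimap7 is highest in Foxp3+ cells on both days.

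Gimap5 and its paralog Gimap3, which support the survival of peripheral T cells, followed the family closely. Gimap5 was lowest in cycling CD8 cells at day +7, at 145 CPM [141, 148], and highest in non-cycling CD4 cells at day +14, at 425 CPM [399, 453], a range of 2.94-fold. Gimap3 had its lowest and highest levels in the same groups, 195 CPM [191, 199] and 463 CPM [436, 491]. Gimap8 also ran between these groups, from 50.4 CPM [48.2, 52.6] to 117 CPM [104, 132]. For 6 of the 8 members, all but Gimap7 and Gimap9, every cycling group was below every non-cycling group. The share of all genes with such a separation was not computed, so this count has no background to be set against.

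Gimap1 had a range of 1.69-fold over the 10 groups and Gimap9 of 1.74-fold, narrower than those of the other members. Gimap1 ran from 346 CPM [340.5, 351] in cycling CD8 cells to 583 CPM [553, 615] in non-cycling CD4 cells, both at day +14. Its levels in the Foxp3+ gate, which also holds cycling cells, were 363 CPM [314, 419] on day +7 and 413 CPM [344, 491] on day +14. Both lay below every non-cycling CD4 and CD8 value. Gimap4 ran from 406 CPM [399.6, 412] in cycling CD8 cells at day +7 to 845 CPM [745, 955] in Foxp3+ cells at day +14. Gimap6, which binds an ATG8 protein of autophagosomes, ran from 194 CPM [178, 212] in cycling CD4 cells at day +7 to 515 CPM [487, 545] in non-cycling CD4 cells at day +14.

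Gimap7 and Gimap9 had patterns of their own. Gimap7 had the widest range of the 8 members, 3.62-fold, from 177 CPM [162, 194] in cycling CD4 cells at day +7 to 642 CPM [555, 738] in Foxp3+ cells at day +14. Foxp3+ cells at day +7 came next with 514 CPM [454, 579]. In non-cycling cells at day +7 it was at 274 CPM [251, 299] in the CD4 gate and 354 CPM [344, 364] in the CD8 gate. Gimap9 stayed between 105 CPM [102, 108] and 123 CPM [117, 129] in all 8 CD4 and CD8 groups, and its levels in Foxp3+ cells were 165 CPM [133, 204] on day +7 and 183 CPM [139, 238] on day +14. Both members were thus at their highest in Foxp3+ cells.

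The likeness of these patterns was measured as Pearson's r over log2(CPM + 1) in the 10 groups, which share libraries and differ in depth, and is given as a description. Gimap6 was of all 6984 genes the one most like the summed family of which it is part (r = 0.99), and Gimap4, Gimap5, Gimap3 and Gimap8 had r of 0.96, 0.96, 0.94 and 0.93. Gimap7, Gimap1 and Gimap9 had 0.79, 0.78 and 0.49. Between members, r was 0.98 for Gimap4 and Gimap5 and -0.078 for Gimap1 and Gimap9. The genes outside the family most like its sum were Ube2b, a ubiquitin-conjugating enzyme (0.99), Tnrc6b, a partner of Argonaute in miRNA silencing (0.98), Cdkn1b, the cell cycle inhibitor p27 (0.97), and Clec2d, a lectin-like ligand of NK cell receptors (0.97). The next 6 were Vps13c, Sat1, Peli1, Fam214a, Ypel3 and Cir1, with r of 0.96 to 0.97. Cdkn1b ran from 44.6 CPM to 111 CPM over the same groups.

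Cycling cells had less GIMAP RNA per UMI than non-cycling cells of the same library. At day +7 the family was at 1699 CPM in 2454 cycling CD8 cells and at 2639 CPM in 1971 non-cycling ones, a log2 ratio of -0.64 [-0.65, -0.62]. At day +14 the levels were 1958 CPM in 2978 cells and 2986 CPM in 1698 cells, a log2 ratio of -0.61 [-0.63, -0.59]. All 8 members were lower in cycling CD8 cells on both days, also with a scaling by the median ratio of genes, where the interval of Gimap9 at day +14 includes 0, -0.057 [-0.15, 0.037], and none was 2-fold lower, where 2.15% of 6562 genes at day +7 and 3.35% of 7081 at day +14 were. The median log2 ratio over all genes was 0.072 at day +7 and 0.020 at day +14, against -0.60 and -0.62 over the 8 members.

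The lower level was in the share of RNA, while the number of GIMAP molecules counted in a cell was higher in cycling cells. Cycling CD8 cells were deeper, with median depths of 14590.5 UMIs at day +7 and 13108.5 at day +14, against 6633 and 5216 in non-cycling cells. They carried on average 28.6 GIMAP UMIs at day +7 and 29.9 at day +14, against 18.7 and 17.2 in non-cycling cells. After thinning to 4000 UMIs the median count was 7 in cycling and 10 in non-cycling CD8 cells at day +7, and 8 and 12 at day +14. At equal depth the cells overlapped widely, with the middle 80% at 3 to 12 UMIs in cycling and 6 to 16 UMIs in non-cycling cells at day +7.

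**Figure D2:**
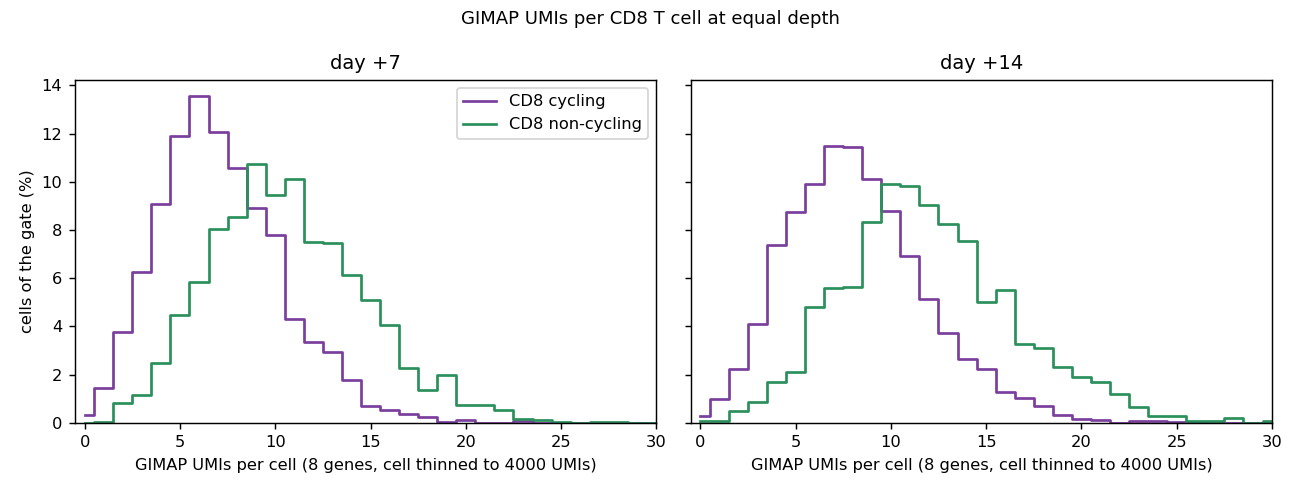
Number of GIMAP UMIs (8 genes summed) in single CD8 T cells after each was thinned to 4000 UMIs, as a percentage of the cells of each gate, for day +7 (left) and day +14 (right). The non-cycling cells are shifted to higher counts, with medians of 10 and 12 UMIs against 7 and 8, and the distributions overlap.

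The size of the difference varied among the members. Gimap6 and Gimap5 were lowest in cycling relative to non-cycling CD8 cells at day +7, with log2 ratios of -0.91 [-0.96, -0.85] and -0.88 [-0.94, -0.82], and Gimap3 was at -0.84 [-0.89, -0.78]. At day +14 Gimap6, Gimap5 and Gimap3 were at -0.70 [-0.75, -0.65], -0.97 [-1.03, -0.91] and -0.94 [-0.99, -0.88]. Gimap1, Gimap4 and Gimap7 had smaller differences, from -0.56 to -0.48 at day +7 and from -0.55 to -0.37 at day +14. Gimap8 was at -0.65 [-0.75, -0.54] and -0.83 [-0.94, -0.71]. Gimap9 was nearest to level, at -0.23 [-0.31, -0.15] and -0.098 [-0.19, -0.0033].

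The CD4 gate, with far fewer cells, gave values of similar size. The family's log2 ratio of cycling over non-cycling CD4 cells was -0.63 [-0.68, -0.57] at day +7 (170 and 250 cells) and -0.75 [-0.80, -0.70] at day +14 (223 and 481 cells). These cells carried 27.3 GIMAP UMIs on average when cycling and 19.2 when not at day +7, and 27.6 and 16.7 at day +14. At day +14, 3 of the 8 members were at least 2-fold lower, Gimap3 (-1.22 [-1.36, -1.07]), Gimap8 (-1.22 [-1.51, -0.93]) and Gimap5 (-1.15 [-1.30, -0.997]), where 8.87% of 7270 genes were. At day +7 no member was, where 4.06% of 6694 genes were. Gimap9 again stood apart, with -0.059 [-0.32, 0.20] at day +7 and 0.11 [-0.12, 0.35] at day +14.

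**Figure D3:**
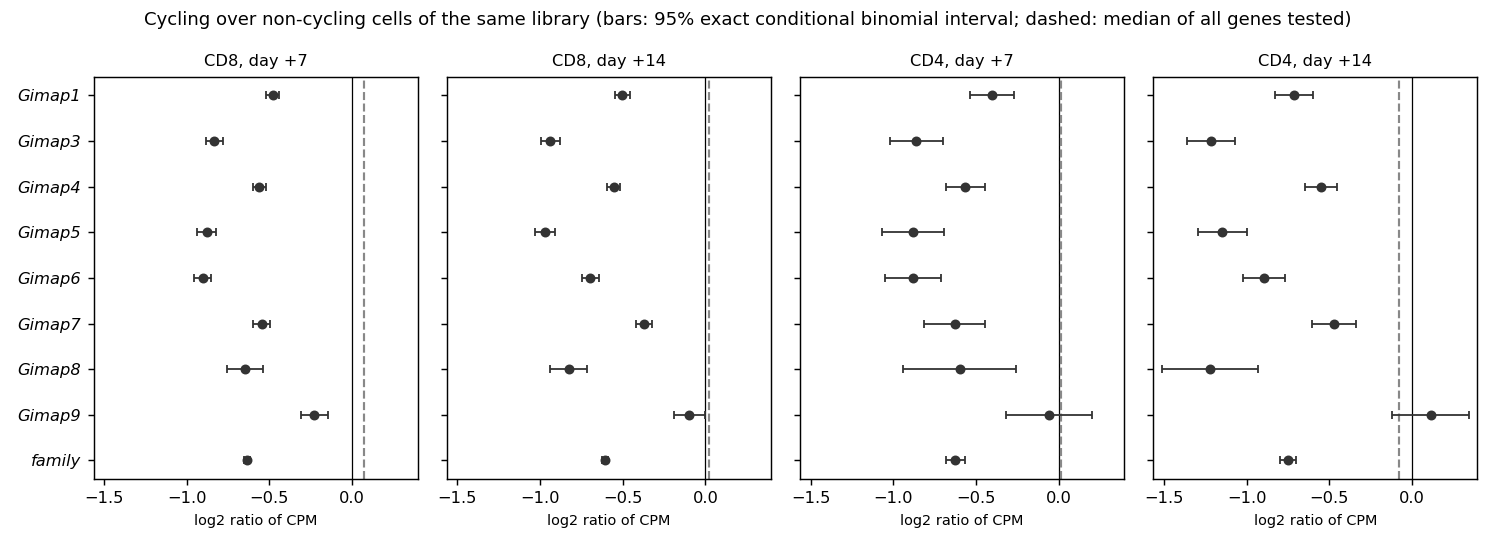
Log2 ratio of CPM in cycling over non-cycling cells for each member and the summed family, by lineage and day, with exact conditional binomial intervals. The solid line is 0 and the dashed line the median of all genes, and the family lies between -0.75 and -0.61 in all 4 panels, with Gimap9 the member nearest to 0 in each.

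Across narrower ranges of the cycling share, the family's level in CD8 cells was not lowest in the cells with the highest share. At day +7 it was 2657 CPM [2623, 2692] in cells with under 0.05% of UMIs on the cycling genes, 1612 CPM [1594, 1631] in those with 0.3 to 0.5%, and 2186 CPM [2081, 2295] in the 56 cells with 1% or more. At day +14 the corresponding levels were 3004 CPM [2959, 3049.7], 1853 CPM [1832, 1873] and 2607 CPM [2516, 2701], the last in 118 cells. The lowest level on both days was thus in the middle of the range. The deepest cells were nearby, with a median of 16450 UMIs at day +7 and 15241.5 at day +14 in the range of 0.5 to 0.7%, and the part of depth in this course was not tested.

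**Figure D4:**
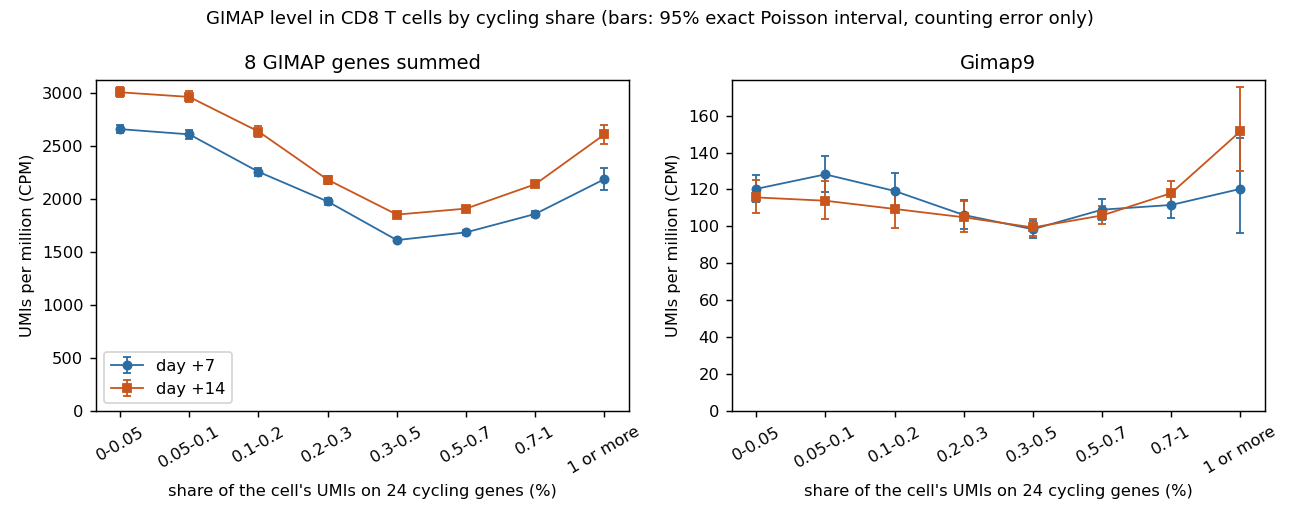
GIMAP level (CPM, axes from 0) in CD8 T cells divided by the share of their UMIs on 24 cycling genes, for the 8 genes summed (left) and for Gimap9 (right), at day +7 (circles) and day +14 (squares), with exact Poisson intervals. The summed family is lowest at 0.3 to 0.5%, at 1612 and 1853 CPM, and higher on either side.

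After these values were seen, cycling CD8 cells were divided by whether more of their cycling UMIs were on 12 replication genes, such as Mcm2 and Pcna, or on 12 mitotic genes, such as Mki67. At day +7 the family was at 1554 CPM in 805 replication-led and 1770.4 CPM in 1649 mitosis-led cells, a log2 ratio of mitosis-led over replication-led cells of 0.19 [0.16, 0.21]. At day +14 it was at 1779 CPM in 1136 and 2060.1 CPM in 1842 cells, a ratio of 0.21 [0.19, 0.23]. The depths were close, with medians of 15098 UMIs in replication-led and 14466 in mitosis-led cells at day +7, and 12665.5 and 13414 at day +14. Gimap1 was higher in mitosis-led cells by 0.43 [0.38, 0.49] and 0.39 [0.34, 0.44], Gimap3 by 0.39 [0.32, 0.46] and 0.46 [0.39, 0.52], and Gimap8 by 0.37 [0.23, 0.51] and 0.40 [0.27, 0.52]. Gimap4 was close to level, at -0.059 [-0.11, -0.013] and -0.023 [-0.062, 0.017]. Relative to non-cycling CD8 cells, replication-led cells had at least 2-fold less of 2 of the 8 members at day +7, Gimap6 and Gimap3, where 3.87% of 6564 genes were 2-fold lower. At day +14 they had at least 2-fold less of 3, Gimap3, Gimap8 and Gimap5, where 5.19% of 7066 genes were. No member was 2-fold lower in mitosis-led cells on either day, where 1.92% and 2.97% of genes were.

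Between the days, the family's level in T cells differed little, about as much as that of the median gene, and its direction turned with the scaling. Its log2 ratio of day +14 over day +7 was 0.18 [0.17, 0.19] scaled by total UMIs, the median of 6884 genes was 0.18, and with the median-ratio scaling, which removes a shift of 0.22, the family's ratio turned to -0.044. No member differed 2-fold, where 3.12% of genes did. The median over the 8 members was 0.16, and 4 of them lay above the median gene.

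The members differed in their day ratios. Gimap7 was at 276 CPM [272, 279.5] and 358 CPM [354, 362], a log2 ratio of 0.37 [0.35, 0.40]. Gimap6 was at 251 CPM [247, 254] and 320.3 CPM [316, 324], a ratio of 0.35 [0.33, 0.38], and Gimap5 at 182 CPM [179, 185] and 222 CPM [219, 226], a ratio of 0.29 [0.26, 0.32]. These 3 were higher at day +14 under both scalings, with 0.15, 0.13 and 0.068 after the median-ratio scaling. Gimap4 was at 472 CPM [467, 477] and 548 CPM [542, 553], a ratio of 0.21 [0.19, 0.23] that became -0.0090 with the median-ratio scaling. Gimap1 (396 CPM and 382 CPM), Gimap3 (242 CPM and 248 CPM), Gimap8 (57.7 CPM and 62.0 CPM) and Gimap9 (111 CPM and 110.3 CPM) had ratios of -0.053, 0.034, 0.10 and -0.0073, which were -0.28, -0.19, -0.12 and -0.23 with the median-ratio scaling.

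Some other transcripts differed between the T cell gates of the libraries as well. The 6 T cell receptor complex genes that define the gate summed to 5918 CPM on day +7 and 7612 CPM on day +14. The NK cell markers (2 of 2 detected on both days) summed to 7.01 and 0.728 CPM. The 7 erythroid markers, all detected on both days, summed to 54.5 and 18.0 CPM. The neutrophil markers, at 45.0 and 46.6 CPM, and the macrophage markers, at 25.8 and 23.6 CPM, differed less. NK cells also make GIMAP proteins but lack TCRβ, on which the cells were sorted, and their part in the day ratios was not tested.

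**Figure D5:**
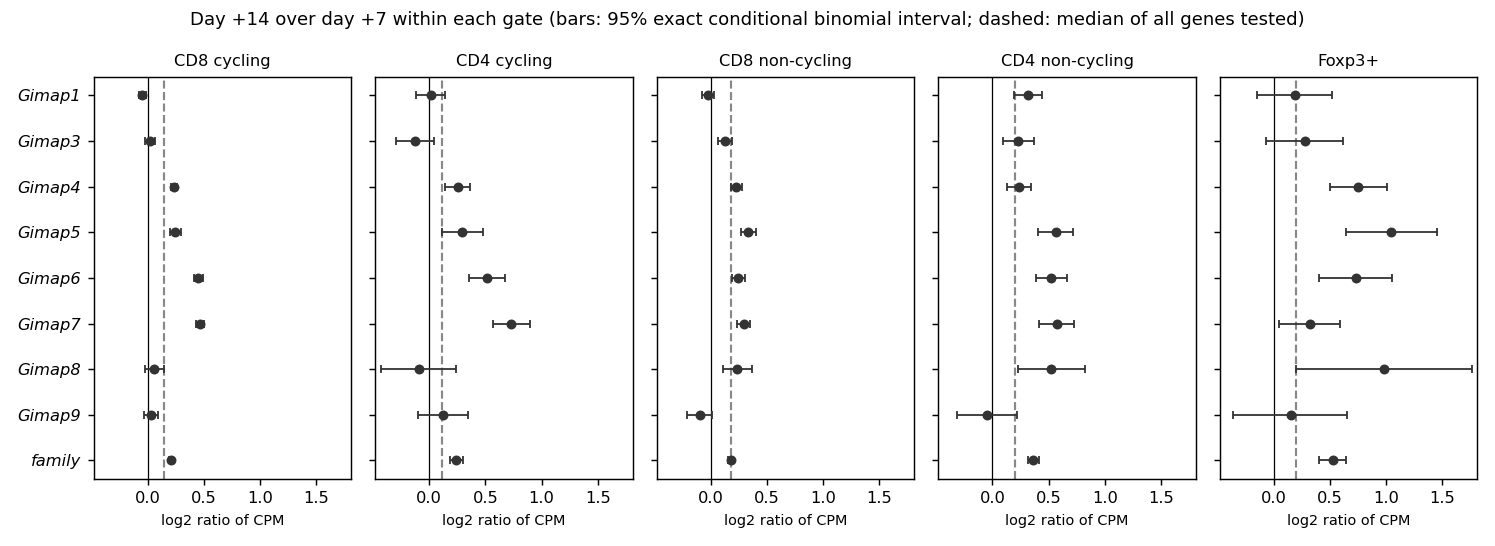
Log2 ratio of CPM at day +14 over day +7 for each member and the summed family within 5 gates, scaled by total UMIs, with exact conditional binomial intervals. The solid line is 0 and the dashed line the median of all genes, and the family is at 0.18 in non-cycling CD8 cells, on the median of all genes (-0.019 with the median-ratio scaling), and at 0.37 in non-cycling CD4 and 0.52 in Foxp3+ cells, above it.

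Within CD8 cells the family's day ratio was 0.20 [0.19, 0.22] in cycling and 0.18 [0.16, 0.20] in non-cycling cells, scaled by total UMIs. With the median-ratio scaling it was 0.034 in cycling cells and -0.019 [-0.041, 0.0033], an interval that includes 0, in non-cycling cells. Within CD4 cells it was 0.24 [0.19, 0.30] in cycling and 0.37 [0.31, 0.42] in non-cycling cells, and 0.18 and 0.36 with the median-ratio scaling. In Foxp3+ cells it was 0.52 [0.40, 0.64], or 0.56 with the median-ratio scaling, and 0.40 [0.28, 0.52] without the cells of highest doublet score. Erythroid markers in the Foxp3+ gate summed to 192 CPM at day +7, with 5 of 7 genes detected, and to 9.82 CPM at day +14, with 3 of 7, and their part in this ratio was not tested. Gimap4, Gimap5, Gimap6 and Gimap7 were higher at day +14 in each of the 5 gates, under both scalings, though in non-cycling CD8 cells the values of Gimap4 and Gimap6 with the median-ratio scaling, 0.030 [-0.016, 0.076] and 0.046 [-0.012, 0.11], have intervals that include 0. Scaled by total UMIs, most genes were higher at day +14 too, 72.5% in cycling and 68.5% in non-cycling CD8 cells. In cycling CD4, non-cycling CD4 and Foxp3+ cells 64.7%, 67.0% and 62.2% of genes were. Gimap7 had its widest day ratio in cycling CD4 cells, 0.73 [0.57, 0.89], from 177 CPM to 294 CPM [275, 314]. In none of the 4 CD4 and CD8 gates did a member differ 2-fold between days, where 2.97% of genes in cycling CD8, 5.36% in non-cycling CD8, 4.13% in cycling CD4 and 8.54% in non-cycling CD4 cells did.

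The 50 and 47 Foxp3+ cells were set against CD4 cells without Foxp3. Other genes of regulatory T cells marked the gate. Ikzf2 was at 512 and 1025 CPM in Foxp3+ cells against 27.2 and 58.3 CPM in CD4 cells, and Ctla4 at 369 and 747 CPM against 47.4 and 85.9 CPM. The family was higher in Foxp3+ cells on both days, with log2 ratios of 0.23 [0.14, 0.31] at day +7 and 0.40 [0.31, 0.49] at day +14. Gimap7 was at 514 CPM in Foxp3+ and 220.0 CPM [208, 233] in CD4 cells at day +7, a log2 ratio of 1.22 [1.03, 1.42], and at 642 CPM and 346 CPM [331, 361] at day +14, a ratio of 0.89 [0.67, 1.11]. It was the only member at least 2-fold higher at day +7, where 4.30% of 6669 genes were, and no member was at day +14, where 7.05% of 7291 genes were. With cells thinned to 4000 UMIs, the ratio of Gimap7 at day +14 was past 2-fold too, at 1.10 [0.80, 1.39]. The counts behind these Foxp3+ values are small, 270 Gimap7 UMIs at day +7 and 196 at day +14.

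Gimap9 was higher in Foxp3+ cells by 0.53 [0.19, 0.86] and 0.63 [0.21, 1.02], Gimap3 by 0.27 [0.039, 0.50] and 0.38 [0.11, 0.64], and Gimap6 by 0.27 [0.025, 0.50] and 0.42 [0.18, 0.65]. Gimap1 was the member with negative values on both days, -0.13 [-0.35, 0.088] and -0.15 [-0.42, 0.11], with intervals that include 0. Gimap4, Gimap5 and Gimap8 were at -0.093, -0.18 and -0.26 at day +7, where the intervals of all 3 include 0, and at 0.38 [0.19, 0.56], 0.34 [0.056, 0.61] and 0.42 [-0.15, 0.93] at day +14. Requiring 2 Foxp3 UMIs, a gate chosen after the values were seen, left 27 and 30 cells, with ratios of 0.46 and 0.42 for the family and 1.51 and 0.84 for Gimap7. Between days, Gimap5 in Foxp3+ cells had a level of 183 CPM [148, 223] on day +7 and 377 CPM [311, 452] on day +14, a log2 ratio of 1.04 [0.64, 1.45]. It was the only 1 of the 8 members past 2-fold in that comparison when scaled by total UMIs, with Gimap8 at 0.98 [0.20, 1.76], or 1.01 with the median-ratio scaling, a comparison in which 18.7% of 6942 genes were past 2-fold.

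Conventional CD4 and CD8 cells were also compared. In non-cycling cells at day +7 the family's log2 ratio of CD4 over CD8 cells was 0.0021 [-0.042, 0.046], or -0.040 with the median-ratio scaling, while that of Gimap7 was -0.37 [-0.50, -0.23]. At day +14 the family was higher in CD4 cells by 0.19 [0.15, 0.23], or 0.10 with the median-ratio scaling, and Gimap5 was at 0.34 [0.24, 0.44], or 0.25 with the median-ratio scaling. Gimap7 was at -0.088 [-0.19, 0.014], and at -0.17 [-0.28, -0.072] with the median-ratio scaling and -0.20 [-0.34, -0.055] after thinning, where the interval does not include 0. In cycling cells Gimap7 was lower in CD4 cells on both days, at -0.45 [-0.58, -0.32] and -0.19 [-0.29, -0.089]. Gimap4 was higher in CD4 cells in all 4 comparisons, by 0.14 to 0.16. No member differed 2-fold in any of the 4, where 3.25% and 3.96% of genes did in non-cycling and 1.83% and 2.64% in cycling cells at day +7 and day +14.

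Non-cycling CD8 cells were then divided by whether they had a UMI of a gene of memory, recirculation, antigen receptor signaling or killing. A cell without a UMI may still express the gene. Cells with Tcf7, a transcription factor of naive and memory T cells, had less Gimap7 than those without, by -0.29 [-0.45, -0.13] in 139 against 1832 cells at day +7 and by -0.86 [-1.02, -0.70] in 187 against 1511 cells at day +14. Cells with Gzma, the gene of granzyme A, had more Gimap7, by 0.44 [0.32, 0.56] at day +7 and 0.25 [0.14, 0.35] at day +14. The sides of this division were of unlike size on the 2 days. Cells with and without Gzma held 31597 and 5339 GIMAP UMIs at day +7, and 5810 and 23463 at day +14. In these 4 divisions Gimap7 had the widest difference of the 8 members when scaled by total UMIs, but with the median-ratio scaling Gimap3 (0.30) was further from 0 than Gimap7 (-0.22) in the Tcf7 division at day +7. For Gzma, Gimap9 was at 0.39 [0.19, 0.60] and 0.18 [-0.029, 0.39], and these intervals overlap those of Gimap7. On each day 7 of the 8 members were higher in cells with Gzma, where 55.5% and 56.3% of all genes were.

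The summed family differed less than Gimap7 between these cells, by 0.0014 [-0.052, 0.054] and -0.19 [-0.24, -0.14] for Tcf7 and by 0.18 [0.14, 0.23] and 0.079 [0.037, 0.12] for Gzma. With and without S1pr1, a receptor for leaving lymphoid organs, it differed by 0.050 [0.020, 0.080] and -0.0045 [-0.045, 0.036], and with and without Klf2, which drives S1pr1, by 0.098 [0.035, 0.16] and 0.0067 [-0.026, 0.040]. For Nr4a1, an early gene of antigen receptor signaling, it differed by 0.040 [-0.019, 0.098] at day +7 and by -0.19 [-0.27, -0.12] at day +14, the latter in 85 against 1613 cells. Cells with and without Klf2 held 34827 and 2109 GIMAP UMIs at day +7, and 14123 and 15150 at day +14. For S1pr1 these were 22864 and 14072 at day +7, and 6405 and 22868 at day +14. No member differed 2-fold in any of the 10 divisions. The share of genes that did was 2.25% and 3.53% for Tcf7, 3.23% and 1.21% for Klf2, 0.0636% and 0.876% for S1pr1, 0.710% and 2.72% for Nr4a1, and 0.650% and 0.516% for Gzma.

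A list of 28 genes with ties to GIMAP function was set beside the family, 6 survival genes of the BCL2 family, 5 ATG8 genes of autophagy, 2 GSK3 kinases, 4 Notch genes and 11 genes of resting and recirculating T cells. Of the 25 at 10 CPM or more, 22 were lower and 3 higher in cycling than in non-cycling CD8 cells at day +7, with a median log2 ratio of -0.56, and 6 were at least 2-fold lower. Of all genes 43.7% were lower at day +7 and 2.15% were 2-fold lower. At day +14, 17 of 22 listed genes were lower, 5 of them at least 2-fold, against 48.6% and 3.35% of all genes. All 5 ATG8 genes were lower on both days, with medians of -0.51 and -0.60, close to the family's values. Gabarapl2, whose product binds Gimap6, was at -0.64 and -0.52. Larger differences than those of any GIMAP gene were found in Bcl2, a survival factor of resting T cells (-2.03 and -1.90), in Il7r, the IL-7 receptor (-2.44 and -2.24), and in Tcf7 (-2.04 and -2.22). Gsk3a, in contrast, was higher in cycling cells (0.37 and 0.40).

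Between days these genes differed in both directions. In T cells 13 of 24 were higher and 11 lower at day +14, scaled by total UMIs, with a median of 0.11 and 3 of them at least 2-fold lower, where 73.8% of all genes were higher and 3.12% were past 2-fold in either direction. With the median-ratio scaling 8 of the listed genes were higher and 16 lower. Dtx1, of the Notch genes, had a log2 ratio of -2.67, Il7r of -2.09 and S1pr1 of -1.13. Among those higher under both scalings were Tcf7 (0.76), Notch1 (0.65), Btg1 (0.65), an inhibitor of proliferation in resting T cells, and Bcl2 (0.47). Of the 25 listed genes for which r was computed, Btg1 was the most like the GIMAP sum over the 10 groups (r = 0.90), followed by Mcl1, a survival factor (0.88), while r was 0.19 for Bcl2, 0.045 for Tcf7 and -0.46 for Klf2.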

How the data were processed

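Per the submitters' processing notes, the authors aligned reads to mm10 with Cell Ranger 6.1.2. The deposited counts are whole UMIs per gene and barcode, without normalization, for barcodes that passed cell detection. The authors' methods give the limits on genes and mitochondrial UMIs used here and a removal of doublets with Scrublet. Here Scrublet (scanpy 1.11.5) called 2 barcodes at day +7 and 0 at day +14, so the call did not work and doublets remained, and removing the 433 and 518 highest scores was an alternative. T cells with at least 2 UMIs of Cd8a and Cd8b1 and at least 1 Cd4 UMI (157 and 399) were kept out of the CD4 and CD8 gates. The CD4 gate needed at least 1 Cd4 UMI, at most 1 UMI of Cd8a and Cd8b1 and no Foxp3. The Foxp3+ gate needed at least 1 Foxp3 UMI and at most 1 UMI of Cd8a and Cd8b1.

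For each gate the UMIs of its cells were added up and divided by the gate's total (CPM). Genes averaging 10 CPM or more over both sides entered the counts of 2-fold differences, which used log2(CPM + 1). The median-ratio scaling used genes with at least 100 UMIs on both sides. The 8 members and the gene lists were chosen with earlier results of these data known. The named genes are the members, the 28 listed genes and the 10 genes with the highest r to the summed family. Replication-led and mitosis-led cells and the stricter Foxp3 gate were added after the values were seen. The calculations were tested on simulated data under Python 3.11.15 with numpy 2.4.6, scipy 1.17.1 and pandas 2.3.3. Other settings tried were the mean over single cells, thinning, a mitochondrial limit of 5%, a total without ribosomal and mitochondrial UMIs, stricter lineage gates, a single cycling threshold of 0.2% and no myeloid and erythroid limit. Protein sequences were not used here, and a further marker list is not reported here.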

Additional observations from a re-analysis of the deposited data

Results flagged for a closer look

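The antisense transcript Gimap1os, which is no member of the family, had UMIs in T cells, at 35.2 CPM on day +7 and 35.9 CPM on day +14. In cycling over non-cycling CD8 cells its log2 ratio was -1.04 [-1.18, -0.91] and -0.998 [-1.14, -0.85], against -0.48 [-0.52, -0.44] and -0.50 [-0.55, -0.46] for Gimap1, which it overlaps. The part of its UMIs that came from Gimap1 reads was not tested.

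GIMAP UMIs were also found in the barcodes left out by the limits on genes and mitochondrial UMIs. They made up 1293 CPM at day +7 (491 UMIs in 176 barcodes) and 1767 CPM at day +14 (752 UMIs in 249 barcodes).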

How the results depend on the processing

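With the median-ratio scaling the family's log2 ratio of day +14 over day +7 became -0.044 in T cells, -0.019 [-0.041, 0.0033] in non-cycling CD8 cells and 0.034 in cycling CD8 cells. Those of Gimap3, Gimap4 and Gimap8 in T cells became -0.19, -0.0090 [-0.029, 0.0105] and -0.12. The intervals shown include 0. With the mean over single cells the 3 family ratios were 0.24, 0.23 and 0.22, and in T cells thinned to 4000 UMIs the ratio was 0.15. Per UMI, cycling CD8 cells had less GIMAP RNA than non-cycling ones in each setting run. Their log2 ratio at day +7 and day +14 was -0.66 and -0.57 with the median-ratio scaling, -0.58 and -0.58 with the mean over single cells, -0.70 and -0.68 without ribosomal and mitochondrial UMIs, -0.57 and -0.54 after thinning, -0.54 and -0.54 with a single cycling threshold, and -0.66 and -0.63 without the highest doublet scores. The family's ratio of non-cycling CD4 over CD8 cells at day +7 also reversed with the median-ratio scaling, from 0.0021 to -0.040, while its day ratio in non-cycling CD4 and in Foxp3+ cells kept its direction. The cause of these shifts was not tested.

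For Foxp3+ over CD4 cells at day +7, the family's ratio of 0.23 was 0.31 with the mean over single cells, 0.33 without the highest doublet scores and 0.46 with at least 2 Foxp3 UMIs, while Gimap7 stayed between 1.19 and 1.51. At day +14 Gimap7 lay between 0.81 and 1.10, the latter with thinning. No paired analysis was possible because each day has 1 library, and no replicate could be left out. Counting intervals are wide for Gimap8 and for the Foxp3+ cells.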
